A study of Mus musculus with 4 samples.

Results

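Aqp4, which encodes the aquaporin-4 water channel, and 7 genes of the dystrophin complex (Dmd, Dag1, Sgca, Sgcb, Sgcd, Sspn and Utrn) were followed in spatial transcriptomes of mouse tibial muscle. They are the rows of the feature tables that carry these symbols, 8 of 32285 features, with 1 row for each symbol. Aqp4 was picked because it was among the strongest decreases after injury in these same sections, so its ratios to the uninjured section are a description of what chose it. All mice carried Nse-Bmp4, a transgene in which the neuron specific enolase promoter drives Bmp4, on the C57BL/6 strain, at 6 to 8 weeks of age, and serve as a model in which injured muscle forms ectopic cartilage and bone. The groups are uninjured muscle (day 0) and muscle taken 1, 3 and 7 days after cardiotoxin injury, with 1 section each. The labels state that 3 tibial muscles were mixed for a group, and how they lie in the sections is not given in the sources used here. With 1 section for each day no test of a day is possible, and the 95% intervals below cover counting error only.

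The dystrophin complex spans the membrane of the muscle fibre. Dystrophin (Dmd) binds the actin cytoskeleton inside the fibre, dystroglycan (Dag1) binds laminin in the matrix outside, and the sarcoglycans (Sgca, Sgcb, Sgcd) with sarcospan (Sspn) form a subcomplex that steadies this link. Utrophin (Utrn) is the close relative of dystrophin that is found at neuromuscular junctions, in blood vessels and in developing or regenerating fibres. Aquaporin-4 is the water channel of the membrane of fast-twitch fibres, where it lies with the complex.

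RefSeq promoter windows of GRCm38.p6, the assembly that mm10 stands for, were found for 7 of the 8 genes. Windows of 3 are shown, 300 bases each with 250 before the start site. Per UMI of the section, the log2 ratios to day 0 of Dmd, Sgca and Sgcb lay between -1.11 and -0.82 at days 1 and 3. At day 7 they were 0.03, -0.35 and -0.21. The windows shown differ in the motifs they hold. For Dmd 1 of its 2 windows is shown. Capitals mark matches, on either strand, to the E-box (CANNTG, the motif of the MyoD family), to the CArG box (the motif of serum response factor) or to the MEF2 motif, none of which overlap in these windows.
Dmd, chrX:82948620-82948919, plus strand: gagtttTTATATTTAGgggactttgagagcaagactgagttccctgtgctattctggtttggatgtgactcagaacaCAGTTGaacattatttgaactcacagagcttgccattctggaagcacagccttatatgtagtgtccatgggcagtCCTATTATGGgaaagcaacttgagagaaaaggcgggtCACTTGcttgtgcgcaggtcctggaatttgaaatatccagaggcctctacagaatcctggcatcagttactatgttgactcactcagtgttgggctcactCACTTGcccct
Sgca, chr11:94976278-94976577, minus strand: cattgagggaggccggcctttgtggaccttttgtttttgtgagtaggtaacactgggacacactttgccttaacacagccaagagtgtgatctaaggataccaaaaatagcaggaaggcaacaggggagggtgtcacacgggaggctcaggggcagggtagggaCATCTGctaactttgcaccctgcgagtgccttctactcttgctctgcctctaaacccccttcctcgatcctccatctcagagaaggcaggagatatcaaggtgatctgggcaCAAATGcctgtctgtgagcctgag
Sgcb, chr5:73647688-73647987, minus strand: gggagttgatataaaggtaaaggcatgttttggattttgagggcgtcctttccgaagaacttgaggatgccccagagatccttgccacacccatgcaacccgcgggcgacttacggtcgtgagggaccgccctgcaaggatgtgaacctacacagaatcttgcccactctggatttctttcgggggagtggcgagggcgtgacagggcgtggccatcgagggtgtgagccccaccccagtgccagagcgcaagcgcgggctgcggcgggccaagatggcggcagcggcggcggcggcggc
The Dmd window shown held 3 E-boxes, 1 CArG box and 1 MEF2 motif, and its start site lies 134206 bases inside the annotated gene. The other Dmd window, chrX:85048045-85048344, held no E-box, no CArG box and no MEF2 motif. The Sgca window held 2 E-boxes and neither of the other motifs. The Sgcb window held no match to any of them. Among 32841 mouse windows of this length, 72.3% held an E-box, 1.63% a CArG box and 3.19% a MEF2 motif. These matches describe letters in the windows and say nothing of which factor acts there.

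The sections held 2107 to 3032 spots and 16777832 to 56113066 UMIs, with the fewest UMIs at day 1. Levels are given as UMIs of a gene per 1000000 UMIs of the section (CPM). The summed share of 27 myofibre genes was 27.5%, 15.5%, 9.29% and 16.2% of the UMIs of days 0, 1, 3 and 7, so the tissue matched its label as muscle at each day. The 10 genes of the monocyte/macrophage list summed to 420, 1540, 7692 and 2035 CPM in the same order, and all 10 were detected in each section. A spot covers several cells, and fewer cells of a type cannot be told apart from less RNA in each. Since the sections also differ in makeup, the ratios of the 8 genes and, for the related lists, counts or single ratios are also given per UMI of the myofibre list, and what part makeup plays in the CPM ratios was otherwise not tested.

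Aqp4 stood at 54.9 CPM in uninjured muscle (95% interval 52.7 to 57.1, 2407 UMIs). After injury it stood at 1.97 CPM on day 1 (1.35 to 2.76, 33 UMIs), 2.25 CPM on day 3 (1.87 to 2.67, 126 UMIs) and 10.7 CPM on day 7 (447 UMIs). In order of level the sections ran day 0, day 7, day 3 and day 1, and the last 2 did not differ beyond their counting intervals (day 3 over day 1, 1.14-fold, 0.773 to 1.73). On days 1, 3 and 7 the level was 27.9-fold, 24.4-fold and 5.13-fold below that of day 0. Per myofibre UMI it was 15.7-fold, 8.25-fold and 3.03-fold below day 0. From day 3 to day 7 it was 4.76-fold higher (3.90 to 5.85).

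None of the other 7 genes came near these ratios. Dmd, the cytoskeletal arm of the complex, stood at 52.5, 25.5, 27.3 and 53.5 CPM at days 0, 1, 3 and 7. Its level in CPM was about equal in the first and last sections, and 2.06-fold (day 1) and 1.93-fold (day 3) lower between them. The equality held in CPM only. Per myofibre UMI the log2 ratio of Dmd at day 7 was 0.79 (0.71 to 0.87), and TMM factors shift every log2 ratio of that day by -0.61. Dag1, the matrix receptor, stood at 224, 118, 172 and 180 CPM. Its lowest section was day 1, at 1.89-fold below day 0, and the sections of days 3 and 7 lay between.

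The subcomplex of sarcoglycans and sarcospan was described by 4 genes. Sgca (alpha-sarcoglycan, made in striated muscle) stood at 180, 98.8, 100 and 142 CPM at days 0, 1, 3 and 7. Sgcb (beta-sarcoglycan) stood at 111, 51.5, 62.7 and 96.1 CPM. Sspn stood at 58.5, 24.8, 25.9 and 47.7 CPM. For these 3 the log2 ratios to day 0 were between -1.24 and -0.82 at days 1 and 3 and between -0.35 and -0.21 at day 7. Sgcd (delta-sarcoglycan) was read from few UMIs (62 to 209 in a section) and stood at 3.78, 3.70, 3.72 and 3.42 CPM, and at each day the interval of its log2 ratio to day 0 held 0.

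Utrn stood at 22.0, 13.2, 18.0 and 31.6 CPM on days 0, 1, 3 and 7. It was the member with the highest ratio at day 7, at a log2 ratio of 0.52 (0.40 to 0.64), a direction that turned under the TMM (-0.08) and DESeq2 (-0.11) scalings. The median log2 ratio of all features at that day was 0.63, so the Utrn ratio lay below the median feature.

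**Figure D1:**
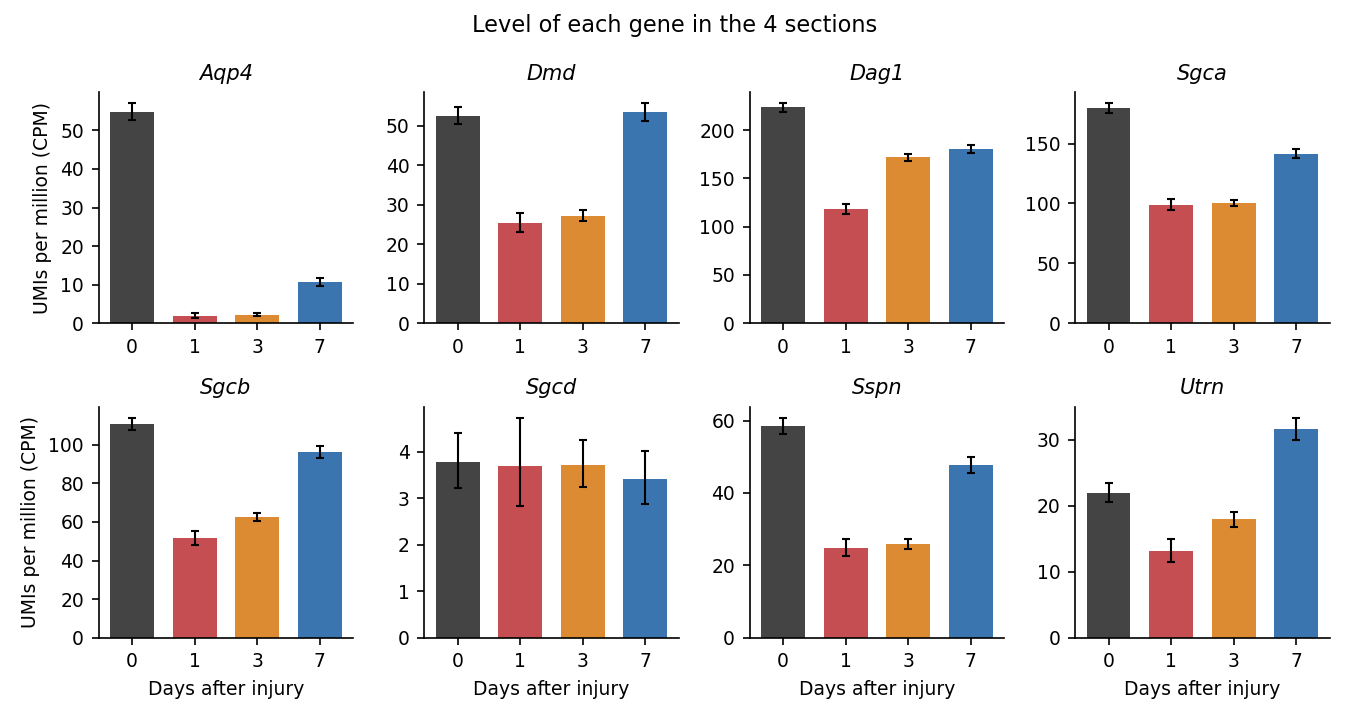
Each panel gives a gene's level in CPM (y axis, from 0) in the sections of days 0, 1, 3 and 7 (x axis), with error bars for the 95% Poisson interval. Aqp4 stands at 54.9, 1.97, 2.25 and 10.7, while Dmd stands at 53.5 at day 7 against 52.5 at day 0 on this scale.

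Of the 8 genes, all of which passed the filter of 100 UMIs over the sections, 4 were at least 2-fold lower at day 1 (Aqp4, Dmd, Sgcb and Sspn), against 10.6% of the 13730 features compared. At day 3 there were 2 (Aqp4 and Sspn), against 6.69% of features. At day 7 there was 1 (Aqp4), against 1.26% of features. Under the TMM and DESeq2 scalings, and against a total from which myofibre, haemoglobin and mitochondrial genes were left out, the first 2 counts were 6 and 5 and the last stayed at 1, and the shares of features given here hold for CPM only. None was at least 2-fold higher at any day, against 17.3%, 31.5% and 29.8% of features at days 1, 3 and 7. Aqp4 is in these counts through the choice of the set. The median log2 ratio of the other 7 was -0.92, -0.82 and -0.21 at days 1, 3 and 7, beside 0.17, 0.57 and 0.63 over all features. TMM factors shifted every log2 ratio by -0.21, -0.55 and -0.61 on those days.

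Per myofibre UMI the picture of the 7 differed from that of Aqp4. At day 1 the log2 ratios of Dmd, Dag1, Sgca, Sgcb, Sspn and Utrn lay between -0.41 and 0.09, and that of Sgcd was 0.80 (0.35 to 1.23). At day 3 all 7 lay above 0, from 0.39 for Sspn to 1.54 for Sgcd, and at day 7 all 7 again lay above 0, from 0.42 for Sgca to 1.29 for Utrn. Aqp4 stayed at -3.97, -3.05 and -1.60. At days 3 and 7 Dag1, Sgca, Sgcb and Sspn were thus lower than in uninjured muscle when set against all RNA and higher when set against the RNA of contractile genes, and Aqp4 was lower on both scales. On this scale 1 gene (Aqp4) was at least 2-fold lower at each day, against 3.26%, 0.641% and 0.24% of features on days 1, 3 and 7. Members at least 2-fold higher numbered 0, 3 and 1, against 50.3%, 87.5% and 75.5% of features, so a positive ratio here is the common case.

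**Figure D2:**
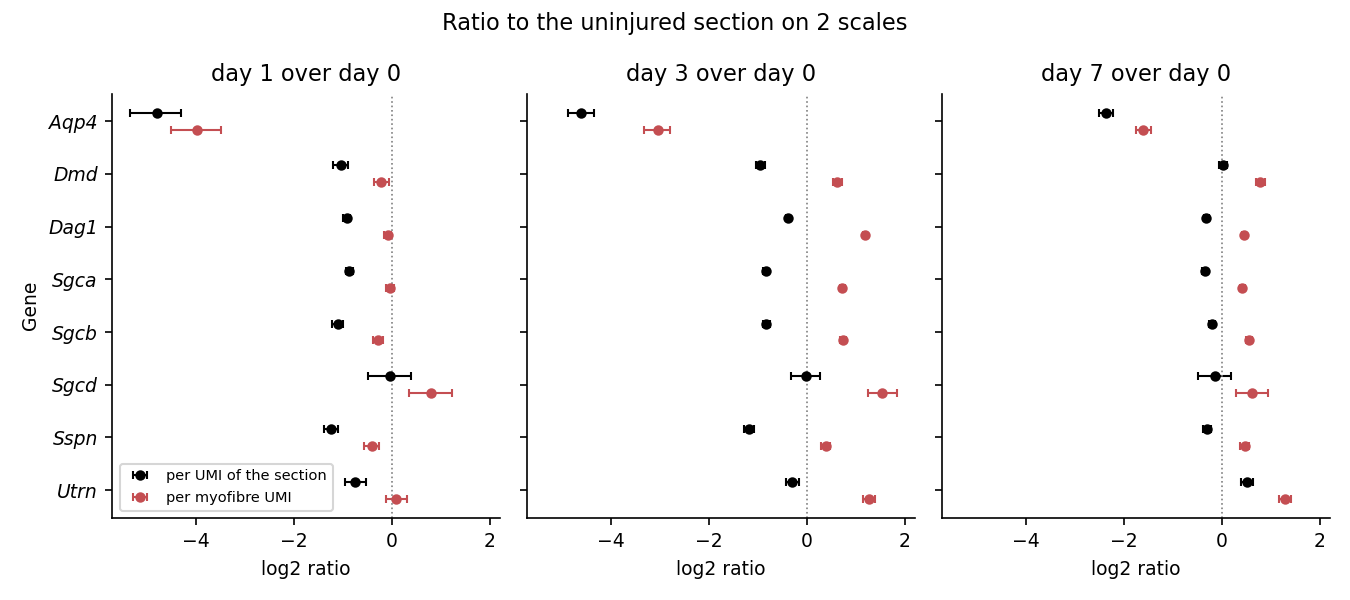
Points give the log2 ratio to day 0 (x axis) of each gene (y axis) at days 1, 3 and 7, in black per UMI of the section and in red per UMI of the myofibre list, with 95% counting intervals. Aqp4 lies left of 0 on both scales at each day, from -4.80 to -1.60, while the red points of the other genes lie above 0 at days 3 and 7.

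Spots were then compared above a limit of myofibre share, the percent of a spot's UMIs that came from the 27 contractile genes. In the class of at least 20%, this share was 27.9% at day 0 and 22.8%, 22.6% and 23.1% at days 1, 3 and 7, so it was not alike. Of its day 0 spots 648 had a share of 30% or more, with Aqp4 at 46.1 CPM, and days 1 and 3 had none. What part this plays in the ratios was not tested. In spots with a share of at least 20%, Aqp4 stood at 55.1 CPM in uninjured muscle (2028 spots). On day 1 it stood at 0.87 CPM (4 UMIs in 564 spots), on day 3 at 3.04 CPM (15 UMIs in 491 spots) and on day 7 at 16.2 CPM (196 UMIs in 1003 spots). The log2 ratios to day 0 were -5.98 (-7.86 to -4.62), -4.18 (-5.02 to -3.46) and -1.76 (-1.98 to -1.55). The intervals of days 1 and 3 held the ratios of the whole section (-4.80 and -4.61), and that of day 7 lay above its -2.36.

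In the same spots the other genes separated by day. At day 3 Dmd stood at 50.2 CPM against 52.6 at day 0, and Sgca at 197 against 181. At day 1 Dmd was lower (22.7 CPM, log2 ratio -1.21, -1.51 to -0.93), as was Sspn (21.9 against 57.9 CPM), and Sgca was the least changed of the well counted genes (145 CPM, log2 ratio -0.32, -0.44 to -0.21). At day 3 Sgcb was still at 59.1 CPM against 112, and Sspn at 31.2 against 57.9. At day 7 Dmd (57.4 CPM), Sgca (187 CPM) and Utrn (21.4 CPM) had ratios to day 0 whose intervals held 1, and Dag1, Sgcb and Sspn were 1.33-, 1.23- and 1.22-fold below day 0.

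Within a section, the genes differed in how their level moved with the myofibre share. At day 7, Aqp4 went from 1.40 CPM in spots with a share under 5% to 2.81 at 5 to 10%, 10.7 at 10 to 20% and 16.6 at 20 to 30%. Sgca went from 27.4 to 77.9, 148 and 187 CPM over the same steps. Dmd went from 22.1 to 41.2, 59.0 and 57.5 CPM. Utrn ran the other way, with 60.3, 47.3, 29.5 and 21.6 CPM. Utrn also fell with the share at day 0, where it stood at 51.4 CPM at 10 to 20%, 24.0 at 20 to 30% and 13.9 at 30% or more. At the upper shares Aqp4 did not rise on the other days. At day 0 Aqp4 stood at 55.0 CPM in spots with a share of at least 10%, at 55.1 with at least 20% and at 46.1 with 30% or more. From a share of at least 10% to at least 20% it went from 2.13 to 0.87 CPM at day 1 and from 4.51 to 3.04 at day 3. The 15 spots of day 7 at 30% or more held 0 Aqp4 UMIs. Dag1 and Sgcb varied less over these steps at day 7 (Dag1 130, 177, 196 and 168 CPM, Sgcb 98.8, 98.1, 98.2 and 90.9 CPM).

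**Figure D3:**
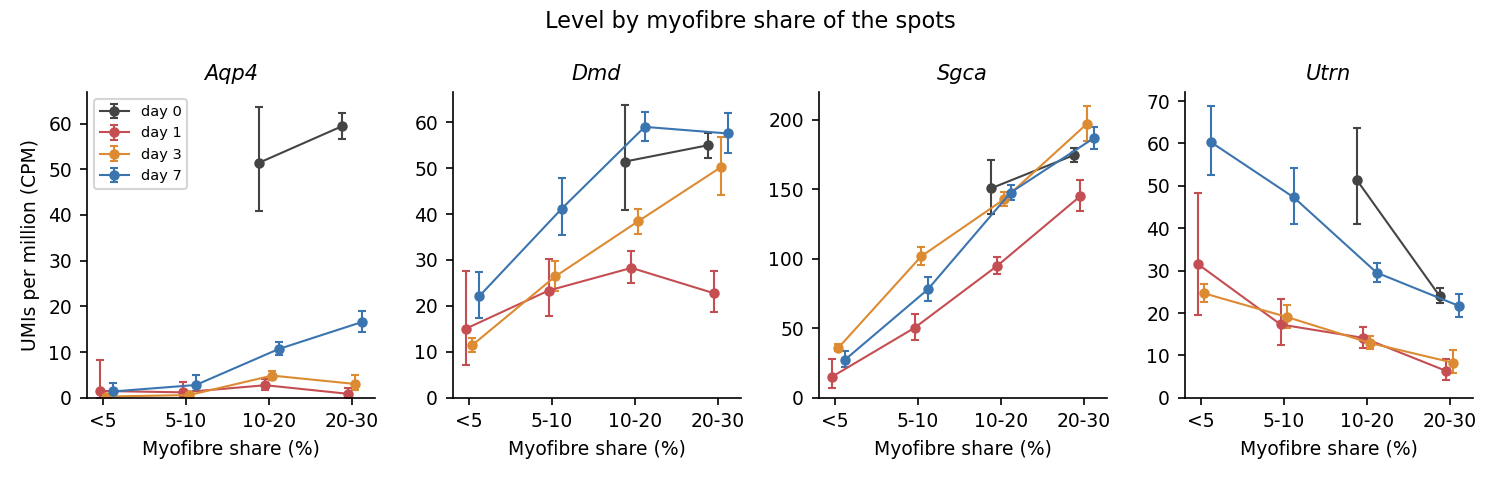
Level in CPM (y axis, from 0) of Aqp4, Dmd, Sgca and Utrn in spots grouped by myofibre share (x axis, percent of a spot's UMIs), with 1 line for each day, 95% Poisson intervals, and groups of at least 50 spots only. Aqp4 at 20 to 30% stands at 59.4 at day 0 and at 0.87, 3.04 and 16.6 at days 1, 3 and 7, while Utrn declines from left to right at each day.

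Spots rich in regenerating muscle RNA set Aqp4 apart from its complex at day 7. They were taken as the 10% of spots of a section richest in 11 genes of regenerating muscle, among them the developmental myosins Myh3 and Myh8 and the myogenic factors Myog and Myod1. At day 7 Aqp4 stood at 1.44 CPM in these 303 spots (11 UMIs) against 12.7 in the other 2729 spots (436 UMIs), a ratio of 0.113 (0.056 to 0.205). At day 3 it stood at 0.33 CPM (3 UMIs) against 2.61, a ratio of 0.128 (0.026 to 0.382). The myofibre share of the rich spots was 15.5% at day 7, near the 16.4% of the others, and 4.63% at day 3 against 10.2%.

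The remaining genes were not low in those spots at day 7. Dag1 stood at 252 CPM against 164 (1.54-fold, 1.46 to 1.62), and at day 3 at 249 against 157 (1.58-fold, 1.51 to 1.66). Sspn stood at 59.2 CPM against 45.1 at day 7 (1.31-fold, 1.18 to 1.46), and Sgcb at 113 against 92.3 (1.23-fold, 1.14 to 1.33). The ratios of Dmd and Sgca at day 7 were 1.03 and 1.12. At day 3 they were 0.663 for Dmd and 0.784 for Sgca. Utrn was 1.26-fold higher at day 3 (1.07 to 1.47), and Sgcd had intervals that held 1 at both days.

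A grouping by the developmental myosins, added after these values were seen, again had Aqp4 low at day 7 but not Sgca higher. Over all spots, those with Myh3 and Myh8 at 1% or more of all myosin UMIs (603 spots) had Aqp4 at 1.74 CPM against 14.3 and Sgca at 125 CPM against 148, so that Sgca was lower (ratio 0.846, 0.797 to 0.897). Dmd stood at 50.1 CPM against 54.9 (ratio 0.911, 0.829 to 1.00), and Dag1 was 1.31-fold higher. Utrn stood at 28.1 CPM with developmental myosin under 1%, 37.0 at 1 to 5%, 46.1 at 5 to 20% and 64.0 at 20% or more. The myofibre share of those groups was 17.6%, 12.9%, 13.8% and 9.01%, and its part in the Utrn levels was not tested. In spots with a myofibre share of at least 10%, those past the same limit of developmental myosin (382 spots) had Aqp4 at 1.74 CPM (14 UMIs), against 16.05 (416 UMIs) in the other 2173 spots, a ratio of 0.108 (0.059 to 0.184). In those 382 spots Dmd stood at 59.9 CPM against 57.9, Sgca at 161 against 162, and Dag1 at 248 against 167. At day 3 only 68 spots with that share of myofibre RNA carried the developmental myosins, and Aqp4 stood there at 3.24 CPM (5 UMIs) against 4.59, a ratio of 0.705 whose interval (0.224 to 1.70) held 1. Of the 447 Aqp4 UMIs of day 7, 426 (95.3%) lay in spots with developmental myosin under 1%, which held 71.1% of the section's UMIs. Even there Aqp4 stood at 14.3 CPM, below the 54.9 of day 0.

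**Figure D4:**
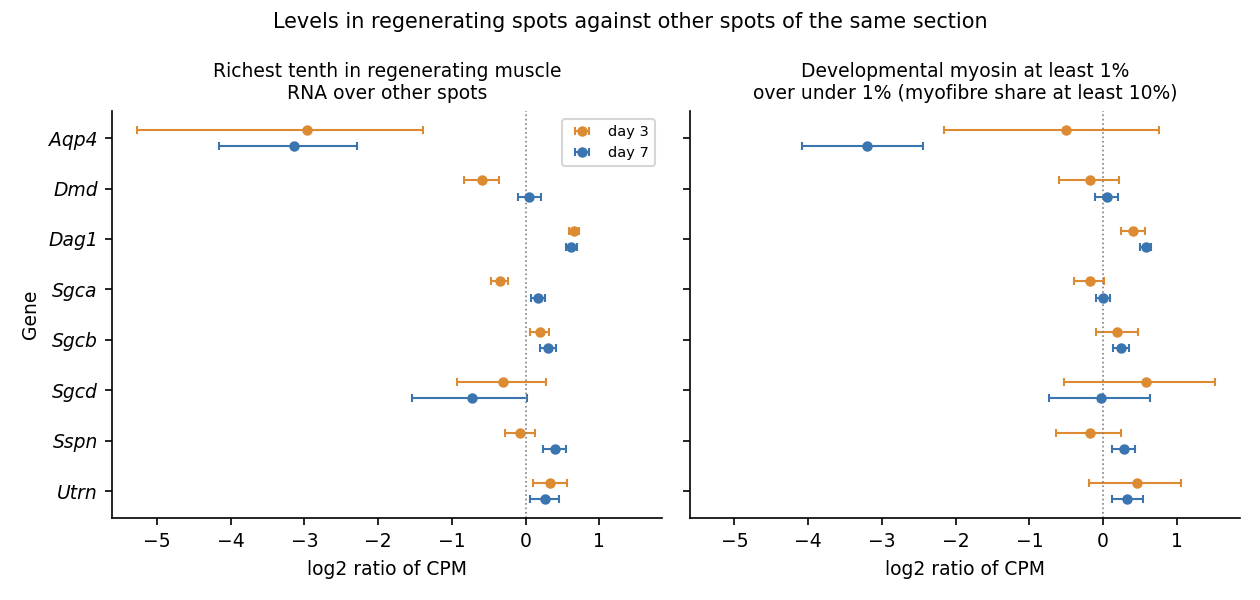
Points give the log2 ratio of CPM (x axis) of each gene (y axis) at days 3 and 7 between regenerating and other spots of a section, with 95% counting intervals; the left panel takes the 10% of spots richest in the regenerating muscle list, the right one spots with developmental myosin at 1% or more among those with a myofibre share of at least 10%. At day 7 Aqp4 lies below -3 in both panels while Dmd and Sgca lie near 0 and Dag1 above 0.

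Utrn was higher in spots rich in vessel genes at each day. In the 10% of spots richest in endothelial genes it stood at 38.3 CPM against 20.2 elsewhere on day 0 (1.90-fold, 1.60 to 2.24). The ratio was 2.49 (1.64 to 3.65) on day 1, 1.30 (1.06 to 1.60) on day 3 and 2.01 (1.74 to 2.32, 57.9 against 28.8 CPM) on day 7. In spots richest in smooth muscle genes its ratios were between 1.41 (day 3) and 2.06 (day 0), each with an interval above 1. In the spots richest in myofibre genes it was low at each day (ratios 0.452, 0.534, 0.531 and 0.562). Dmd in the endothelial-rich spots had ratios of 1.07, 0.985, 1.05 and 0.928, with intervals that held 1 at each day. The myofibre share of the endothelial-rich spots was 22.4% against 28.1% elsewhere at day 0 and 11.3% against 16.7% at day 7, and its part in the Utrn ratios was not tested.

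The balance of Utrn to Dmd depended on which spots were read. Over all spots there were 0.419, 0.516, 0.658 and 0.591 Utrn UMIs for each Dmd UMI on days 0, 1, 3 and 7, log2 changes from day 0 of 0.30 (0.04 to 0.56), 0.65 (0.49 to 0.81) and 0.50 (0.35 to 0.64). In spots with a myofibre share of at least 20% the direction turned, with 0.395, 0.279, 0.165 and 0.373 on those days. There the log2 changes were -0.50 (-1.11 to 0.10), -1.26 (-1.75 to -0.77) and -0.08 (-0.32 to 0.15). Utrn alone stood at 20.8, 6.34, 8.30 and 21.4 CPM in these spots. Their myofibre share was higher at day 0 (27.9%) than at days 1, 3 and 7 (22.8%, 22.6% and 23.1%). Where it was 30% or more at day 0, Utrn stood at 13.9 CPM, and the part of this difference in the changes was not tested.

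**Figure D5:**
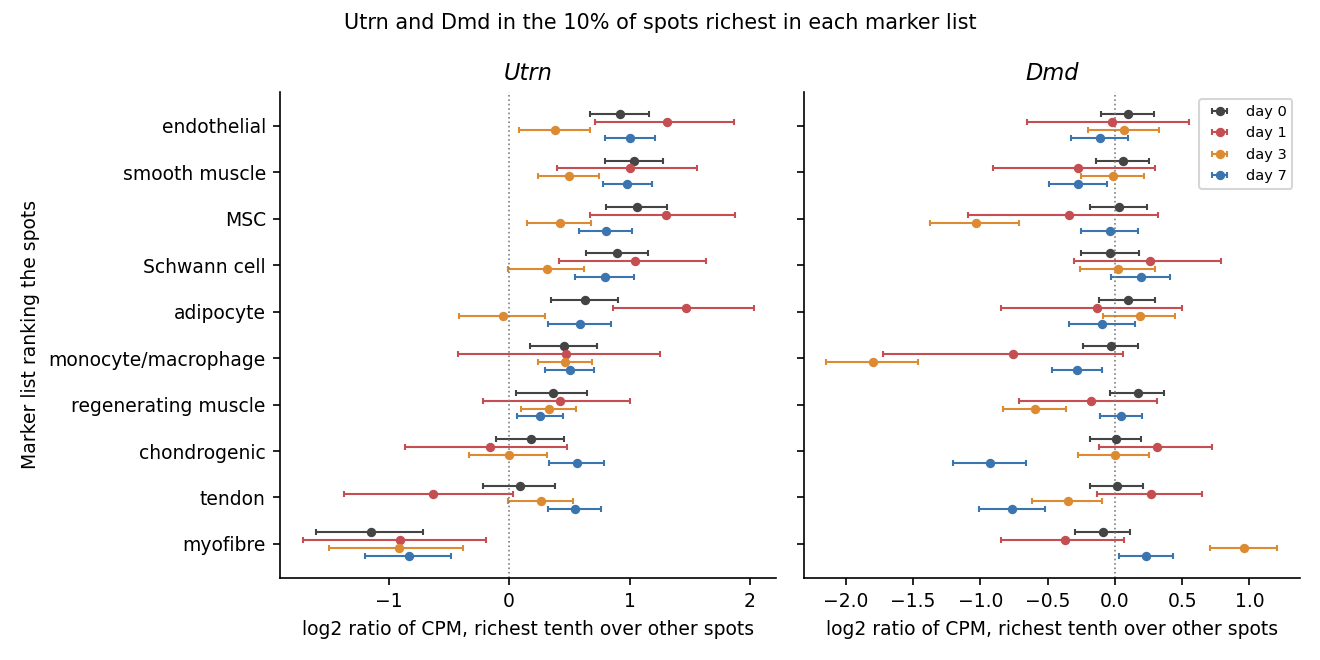
Points give the log2 ratio of CPM (x axis) of Utrn (left) and Dmd (right) between the 10% of spots richest in a marker list and the other spots of the section, for 10 lists (y axis) and the 4 days, with 95% counting intervals. Utrn lies right of 0 for the endothelial and smooth muscle lists at each day, and left of 0 for the myofibre list.

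In spots rich in cartilage genes at day 7, Aqp4, Dmd, Sgca, Dag1 and Sspn were lower than elsewhere, and Utrn and Sgcd were higher. In the 10% of spots richest in the 10 chondrogenic genes (among them Acan, Col2a1 and Sox9) the myofibre share was 6.43% against 17.3% elsewhere. Sgca stood there at 53.2 CPM against 151 (ratio 0.352), Dmd at 29.5 against 56.1 (ratio 0.526) and Aqp4 at 1.95 against 11.6 (ratio 0.168, 0.072 to 0.334). Dag1 stood at 134 CPM against 185 (ratio 0.721) and Sspn at 36.6 against 48.9 (ratio 0.749). The interval of Sgcb (88.1 against 97.0 CPM, ratio 0.908, 0.813 to 1.01) held 1. Utrn stood at 44.6 CPM against 30.2 (1.48-fold, 1.26 to 1.73), and Sgcd at 5.61 against 3.18 (23 UMIs, 1.76-fold, 1.08 to 2.77). At day 3 the spots richest in macrophage genes had a myofibre share of 1.61% and ratios of 0.235 for Sgca, 0.288 for Dmd, 0.677 for Sgcb and 1.38 for Utrn, and here Sgcd was low too (11 UMIs, ratio 0.303, 0.149 to 0.553).

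A comparison by adult fibre type had little to work with. At day 0, 2091 of 2107 spots had Myh4, the myosin of the fastest fibres, as their leading adult myosin, and 1 spot had Myh2, with 1 Aqp4 UMI, so the planned log2 ratio of 0.50 had an interval from -1.98 to 5.80. By a split added after this was seen, spots with Myh4 under 80% of adult myosin UMIs had Aqp4 at 58.0 CPM at day 0 against 51.1 where it was 95% or more (1.14-fold, 1.02 to 1.27). At day 1 the values were 5.81 and 0.721 CPM (8.06-fold, 2.45 to 28.2), from 8 and 6 UMIs. At day 3 the ratio was 1.59 with an interval that held 1 (0.976 to 2.61), and at day 7 the values were 21.2 and 8.81 CPM (2.41-fold, 1.88 to 3.10). Dmd at day 7 was level across that split, at 61.5 and 61.0 CPM. The myofibre share also differed with Myh4. At day 0 it was 20.7% in spots with Myh4 under 50% of adult myosin UMIs, 23.0% at 50 to 80% and 26.7% at 80 to 95%. The part of this difference in the Aqp4 ratios was not tested.

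Spot by spot, Aqp4 and Dmd were sparse. After each spot was thinned to 2000 UMIs, Aqp4 had a UMI in 10.5% of uninjured spots (9.20 to 11.9), and in 0.44%, 0.54% and 2.61% of spots on days 1, 3 and 7. Dmd had one in 9.83%, 4.73%, 6.39% and 10.5%. These shares of Aqp4 and Dmd gave the order of days that the CPM gave, with 9 to 513 spots left out of a section for lack of depth. Dag1 was less sparse, with a UMI in 35.4%, 20.7%, 28.0% and 27.9% of spots. Its shares at days 3 and 7 were about equal and not in the order of its CPM.

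The genes whose log2 ratios at days 1, 3 and 7 came nearest to those of Aqp4, among 1918 with at least 50 CPM at day 0, were Actc1 (cardiac alpha-actin, root mean square difference 0.51), B230312C02Rik (0.76), Tceal7 (1.30), Mafa (1.49) and Aldoart1 (1.63). B230312C02Rik stood at 136, 7.09, 12.8 and 25.8 CPM at days 0, 1, 3 and 7. Tceal7 stood at 162, 18.8, 17.9 and 41.9 CPM. Only the first 2 lay within 1 log2 unit of Aqp4 on this measure, taken over 3 ratios that share the day 0 section. Across the day 0 spots the highest Spearman correlation of any such gene with Aqp4 was 0.052 (mt-Co3, 2090 thinned spots), which at these counts names no gene.

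The rest of the complex was described by 9 genes. In CPM, 2, 1 and 0 of them were at least 2-fold lower at days 1, 3 and 7, beside 10.6%, 6.69% and 1.26% of all features. None, 1 and 2 were at least 2-fold higher, beside 17.3%, 31.5% and 29.8%. Per myofibre UMI none was lower, and 2, 6 and 3 were higher, beside 50.3%, 87.5% and 75.5%. At day 1 Sgce (epsilon-sarcoglycan) was 4.29 CPM against 13.5 in uninjured muscle and Nos1 (neuronal nitric oxide synthase) 4.35 against 10.3. Cav3 (caveolin-3) was higher on day 1, with 156 CPM against 94.4. On day 7 Sntb2 (beta-2-syntrophin) was at 25.2 CPM against 9.78. In the spots richest in regenerating genes at day 7 Cav3 stood at 132 CPM against 60.1 elsewhere.

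Of 11 other aquaporins, 4 passed the filter. In CPM 2, 2 and 1 of these were at least 2-fold lower at days 1, 3 and 7, beside 10.6%, 6.69% and 1.26% of all features. At each of these days 1 was at least 2-fold higher, beside 17.3%, 31.5% and 29.8%. The highest log2 ratios to day 0 were 1.39, 3.55 and 4.24. They belong to genes below the minimum level that the naming rule asks for, and a count of 0 enters a ratio at 3. Aqp7, which carries glycerol in fat and vessels, stood at 12.7, 2.44, 2.35 and 6.07 CPM at days 0, 1, 3 and 7, and per myofibre UMI its log2 ratios to day 0 were -1.54, -0.86 and -0.30. Aqp1, the channel of vessel walls and red cells, stood at 377, 165, 254 and 447 CPM. At day 7 Aqp4 and Aqp7 were below their day 0 levels, and Aqp1 had a log2 ratio of 0.25, smaller than the -0.61 by which the TMM scaling shifts that day.

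The matrix ligands of dystroglycan went different ways. Of 7, 6 passed the filter. In CPM 4, 1 and 0 of these were at least 2-fold lower at days 1, 3 and 7 (10.6%, 6.69% and 1.26% of all features), and 0, 1 and 3 were higher (17.3%, 31.5% and 29.8%). Per myofibre UMI the lower ones came down to 1 at day 1 and none after, beside 3.26%, 0.641% and 0.24% of features. On that scale 0, 3 and 5 of the 6 were higher, beside 50.3%, 87.5% and 75.5%, so a higher ratio here is the common case. Lama2, the laminin chain of the adult fibre's basement membrane, stood at 69.3, 14.8, 22.9 and 48.9 CPM at days 0, 1, 3 and 7. Bgn (biglycan) stood at 164, 132, 653 and 1312 CPM, and Hspg2 (perlecan) reached 538 CPM at day 7 against 264. At day 7 Hspg2 stood at 1512 CPM in the chondrogenic-rich spots against 432 elsewhere, and Agrn (agrin) at 142 against 31.4.

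The 17 genes for the glycosylation of dystroglycan mostly kept within 2-fold of day 0 in CPM. There 1 was lower at day 1 and none at days 3 and 7 (10.6%, 6.69% and 1.26% of all features), and 2, 3 and 1 were higher (17.3%, 31.5% and 29.8%). Per myofibre UMI none was lower, and 6, 16 and 12 were higher, beside 50.3%, 87.5% and 75.5% of features. Gmppb, which makes GDP-mannose, had the highest ratio at each day, at 7.34 CPM at day 0 and 19.4, 26.4 and 23.5 after. Among those with at least 10 CPM in either section compared, B3galnt2 had the lowest ratios at days 1 and 3, at 48.9 CPM at day 0 and 21.9 and 33.0 CPM.

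Among 17 genes of the costamere and the integrin link, 16 passed the filter. In CPM 2, 1 and 0 were at least 2-fold lower at days 1, 3 and 7 (10.6%, 6.69% and 1.26% of all features). At the same days 6, 5 and 2 were higher, beside 17.3%, 31.5% and 29.8%, so the counts of days 3 and 7 do not stand above the background. Per myofibre UMI 1 was lower at day 1 and none after, beside 3.26%, 0.641% and 0.24% of features. On that scale 9, 13 and 7 of the 16 were higher, beside 50.3%, 87.5% and 75.5%, so at days 3 and 7 they do not stand above the background. Itga7, the laminin-binding integrin chain of muscle, stood at 54.0, 132, 252 and 85.7 CPM at days 0, 1, 3 and 7. Flnc (filamin C) stood at 283, 1929 and 692 CPM on days 0, 1 and 3. Itgb1bp2 (melusin) stood at 252, 57.6, 78.6 and 189 CPM. At day 3 Itga7 was at 443 CPM in the regenerating-rich spots against 216 elsewhere (2.05-fold).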

How the data were processed

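Fresh frozen sections were profiled on the 10x Visium array. The deposited counts, made by the authors with Space Ranger (1.2.0 per the file headers, mm10 per the labels), are UMIs per gene and spot, not normalized. All deposited spots were used, and 1341 barcodes recur in all 4 sections, as barcodes name array positions. UMIs were summed over a section or a class of spots and divided by the sum of all UMIs there. Sums got exact Poisson intervals, ratios exact conditional intervals and shares Clopper-Pearson intervals at 95%. A count of 0 was entered at 3 in a ratio. Depth was 6322 to 21029 UMIs per spot at the median. No count model was fitted, since each day has 1 section. TMM factors (edgeR 4.0.16) and DESeq2 1.42.0 size factors served as other scalings. Ratios were tested on simulated data. Features with at least 100 UMIs over the sections formed the background. Genes beyond the 8 were named by rank: per list and day the 2 highest and 2 lowest ratios among genes with at least 10 CPM, and the 5 genes nearest to Aqp4, with further values for some of them; 1 gene that the rule names is not reported here. Krt8, Krt18, Sntb1 and Aqp5, given under other observations, were picked outside this rule. Spots were classed by marker lists. The 8 genes and all lists were chosen with earlier results of these data known. Python 3.11.15 with scipy 1.17.1 was used. Alternatives were other scalings, fold limits, share limits and depths.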

Additional observations from a re-analysis of the deposited data

How the results depend on the processing

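No paired analysis was possible because each day has 1 section. Aqp4 stayed below day 0 under each of the 5 other scalings, between 15.7- and 32.9-fold at day 1, 8.25- and 36.0-fold at day 3 and 3.03- and 7.97-fold at day 7. On the log2 scale it moved beyond its counting interval to -3.97, -3.05 and -1.60 at days 1, 3 and 7 per myofibre UMI. At days 3 and 7 it moved to -5.16 and -2.97 with TMM factors, -5.17 and -2.99 with DESeq2 size factors, and -5.11 and -2.70 against a total that leaves out mitochondrial, haemoglobin and myofibre genes. Members at least 2-fold lower were 1 at days 1 and 3 per myofibre UMI. At day 3 there were 5 under TMM, DESeq2 and that reduced total, and with a limit of 1.5-fold there were 7 at day 1 and 5 at day 3. Aqp4 at day 7 in myofibre-rich spots went from -1.76 to -2.12 with a share of at least 10% and to -1.49 per myofibre UMI. The log2 change of Utrn to Dmd turned to -0.50, -1.26 and -0.083 at days 1, 3 and 7 in spots with a share of at least 20%. Per myofibre UMI the ratios to day 0 turned at days 3 and 7 to 1.18 and 0.45 for Dag1, 0.73 and 0.42 for Sgca, 0.74 and 0.56 for Sgcb and 0.39 and 0.47 for Sspn, at day 3 to 0.62 for Dmd, and at days 1 and 3 to 0.090 and 1.27 for Utrn. Utrn at day 7 turned to -0.084 with TMM and -0.11 with DESeq2. Sgca in regenerating spots of day 7 turned from 0.17 to -0.24 with developmental myosin at 1% or over, and to -0.0021 where the myofibre share was also at least 10%. At day 3 the weak correlations of Dmd and Sgca with the regenerating list turned to 0.0035 and 0.023 given the myofibre share. A share of at least 30% gave no spots at days 1 and 3 and none with another myosin than Myh4 or Myh1 in the lead at day 0, so those alternatives have no value.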

Other observations

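Krt8 and Krt18, keratins of the costamere list, were higher in regenerating spots at day 7, though many of their UMIs lay elsewhere. Krt19, also on that list, is not described here. At day 7 Krt8 stood at 27.3 CPM in the 10% of spots richest in the regenerating muscle list (208 UMIs) against 5.29 in the others (181 UMIs), and Krt18 at 19.4 (148 UMIs) against 6.08 (208 UMIs). At day 3 Krt8 stood at 21.1 against 5.41 CPM. Sntb1, which encodes beta-1-syntrophin, was placed alike, at 24.2 against 6.83 CPM at day 3 and 16.9 against 7.83 at day 7. Synm, which encodes the intermediate filament protein synemin, was placed the other way, at 38.3 against 128 CPM at day 3 and 92.9 against 220 at day 7. Each of these values rests on 1 section.

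Among the other aquaporins, Aqp5 was read at 56 UMIs at day 7, of which 18 lay in the 10% of spots richest in chondrogenic genes, at 4.39 CPM against 1.01 in the others.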
